A study of Homo sapiens with 45 samples.

Results

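The genes described here encode the subunits and receptors through which nerve cells sense glutamate, GABA, glycine and acetylcholine. They were all genes of the count tables whose symbols fall in the families GRIA, GRIK, GRIN, GRID and GRM (glutamate), GABR and GABBR (GABA), GLR (glycine) and CHRN and CHRM (acetylcholine), 72 of 29159 genes. Of these, 26 belong to glutamate, 26 to GABA and glycine and 20 to acetylcholine. The samples were 45 polyA RNA-seq libraries of 3 established human neuroblastoma lines (IMR-32, SH-SY5Y and SK-N-BE(2)C), which the study treats as adrenergic (ADRN) in type. Palbociclib (PB), an inhibitor of the cell-cycle kinases CDK4 and CDK6, was given at 1 µM for 24 h or for a longer time, which was 5 days for SH-SY5Y and IMR-32 and 7 days for SK-N-BE(2)C. The third group of each line was an untreated control. Each of the 9 groups held 5 libraries, described in the methods as passages taken in independent experiments. MYCN is amplified in IMR-32 and SK-N-BE(2)C and not listed as amplified in SH-SY5Y. Each control was collected with the 24 h cells, so that time in culture and time with PB cannot be told apart in the longer comparisons.

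Glutamate opens cation channels of the AMPA, kainate and NMDA kinds, and acts more slowly through metabotropic receptors coupled to G proteins. GABA and glycine open chloride channels, and GABA also acts through the paired GABA-B receptor. Acetylcholine opens nicotinic channels, built of neuronal or of muscle subunits, and activates muscarinic receptors coupled to G proteins. Neuroblastoma arises in the sympathetic lineage, whose neurons receive acetylcholine at ganglia through a nicotinic channel containing the products of CHRNA3, CHRNB4 and CHRNA5.

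Libraries held 13459219 to 25441812 counts, with a median of 18494528, so that 1 CPM (a count scaled to the size of its library) stood for about 18.5 reads. Values below are CPM scaled by TMM factors, given as mean ± SD over 5 libraries, and in the order of replicates 1 to 5 where single libraries are listed. The number after ± in a log2 fold change is its standard error, and adjusted p-values come from edgeR's quasi-likelihood test with Benjamini-Hochberg adjustment over all genes tested. A call required a log2 fold change beyond 0.5 in either direction together with an adjusted p of less than 0.05. The cell-cycle genes MKI67, TOP2A, CCNE2, E2F8 and RRM2, which mark dividing cells, were called lower, 5 of 5, in every line at both times. Their sum was 158 ± 59.7 CPM at 24 h and 255 ± 163 CPM at 7 d in SK-N-BE(2)C. At 24 h and 5 d it was 184 ± 30.5 and 590 ± 147 CPM in IMR-32, and 79.5 ± 27.3 and 226 ± 128 CPM in SH-SY5Y. Of 8 adrenergic markers, 8 were at 1 CPM or more in the controls of IMR-32 and of SK-N-BE(2)C and 7 in the SH-SY5Y control, where TH, the first enzyme of catecholamine synthesis, was at 0.322 ± 0.260 CPM. The listed Schwann cell and glia markers summed to at most 29.3 CPM in any library. The mesenchymal markers, which the lines also express, summed to 841.2 to 1030 CPM in the SK-N-BE(2)C controls and 756.6 to 933.4 CPM at 7 d, and to 1598 to 2278 CPM in the SH-SY5Y controls and 1157 to 1318 CPM at 5 d. The adrenergic markers summed to more at 24 h than in the controls, 5357 to 7122 against 3574 to 4838 CPM in SH-SY5Y, 3361 to 4463 against 2140 to 3213 in IMR-32 and 3026 to 3300 against 2214 to 2537 in SK-N-BE(2)C. After the longer time they summed to 3579 to 5240 CPM in SH-SY5Y, 2979 to 3630 in IMR-32 and 2619 to 3251 in SK-N-BE(2)C. The part of these shifts in the receptor results was not tested. In IMR-32, replicate 5 stood apart: its mesenchymal sum was 1274 CPM in the control, against 688.9 to 763.2 CPM in the other 4, and 490.5 CPM at 5 d, against 288.0 to 389.1 CPM. The IMR-32 tests were therefore also run without it, and those counts of calls are given below. Why it stood apart was not tested. Replicates 3 to 5 of SK-N-BE(2)C lay closer to each other than to replicates 1 and 2 across all genes: the chi-square per degree of freedom of a pair was 2.43 to 3.18 among them in the controls and 1.69 to 2.42 at 24 h, against 11.2 to 19.2 and 7.05 to 23.6 for the other pairs. At 7 d the 4 and 5 pair gave 5.60 and the others 19.3 to 77.8. Among members, GABRQ had 14.6, 14.1, 11.6, 10.3 and 10.8 CPM in these controls. The SK-N-BE(2)C tests were also run with replicates 3 to 5 of each group summed, and a call lost in that way is marked where its value is given. In bulk RNA, fewer cells that express a gene and less of its RNA in each cell cannot be told apart.

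Before treatment, acetylcholine receptor genes held the largest part of the summed receptor CPM in all 3 lines, 860.0 ± 85.8 of 1010.1 ± 93.2 in SH-SY5Y, 1009 ± 204 of 1942 ± 328 in IMR-32 and 945 ± 15.8 of 1553 ± 37.8 in SK-N-BE(2)C. CHRNA3 alone contributed 35.7% of the summed control CPM of the 72 members in SK-N-BE(2)C, 51.6% in SH-SY5Y and 27.1% in IMR-32. Per kilobase of its canonical transcript, which allows genes to be compared, CHRNA3 stood at 183.7 ± 2.09 CPM per kb in SK-N-BE(2)C, 173.0 ± 17.9 in SH-SY5Y and 174.2 ± 36.7 in IMR-32, first among the members in each line. Its control level did not pass the test between any pair of lines (edgeR adjusted p = 0.615, 0.571 and 0.953). CHRNB4 and CHRNB2, the beta subunits that join it, were at 25.9 and 20.7 CPM per kb in SH-SY5Y, 39.3 and 19.7 in IMR-32 and 31.3 and 30.2 in SK-N-BE(2)C.

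Single members of every transmitter group differed between lines. GABRA3, an alpha subunit, was at 59.4 ± 13.5 CPM in IMR-32 and 7.26 ± 1.37 CPM in SH-SY5Y (log2 difference, IMR-32 minus SH-SY5Y, of 3.03 ± 0.22, edgeR adjusted p = 6.42e-16), and at 0.294 ± 0.346 CPM in SK-N-BE(2)C. GRIN2D, an NMDA subunit expressed early in brain development, was at 207 ± 22.2 CPM in IMR-32, 6.90 ± 1.56 CPM in SH-SY5Y and 0.789 ± 0.436 CPM in SK-N-BE(2)C. CHRNA1, the alpha subunit of the muscle receptor, had 825 to 4072 counts in each IMR-32 control library and 0 counts in each of the 10 control libraries of the other lines, which allows up to 3 counts per library. The summed glutamate receptor CPM was 574 ± 71.0 in IMR-32, 268 ± 26.8 in SK-N-BE(2)C and lowest, 112 ± 6.67, in SH-SY5Y, and the ranges of the 3 lines did not overlap.

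A mean of at least 1 CPM in some group was reached by 18 members in all 3 lines, by 14 in IMR-32 alone, by 5 in SK-N-BE(2)C alone and by 2 in SH-SY5Y alone (CHRM5 and GABBR1, the latter with a level that could not be read, as described below), while 20 members stayed under 1 CPM in every group. Among the 14 of IMR-32 were CHRNA1, CHRNA4, CHRNA9, GABBR2, GABRA2, GABRA5, GABRB2, GABRE, GLRA1, GRM4, GRM5 and GRM8, and among the 5 of SK-N-BE(2)C were GABRA4, GABRB1, GRIK4 and GRIN2C. Of the 56 members tested across lines, 46 differed in control level between SK-N-BE(2)C and IMR-32 (15 higher and 31 lower in SK-N-BE(2)C), against 62.1% of all genes. The same test called 38 members between SK-N-BE(2)C and SH-SY5Y (19 higher and 19 lower), against 57.5% of all genes, and 46 between IMR-32 and SH-SY5Y (39 higher and 7 lower in IMR-32), against 54.2%. The plot of control levels by gene shows this spread.

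**Figure D1:**
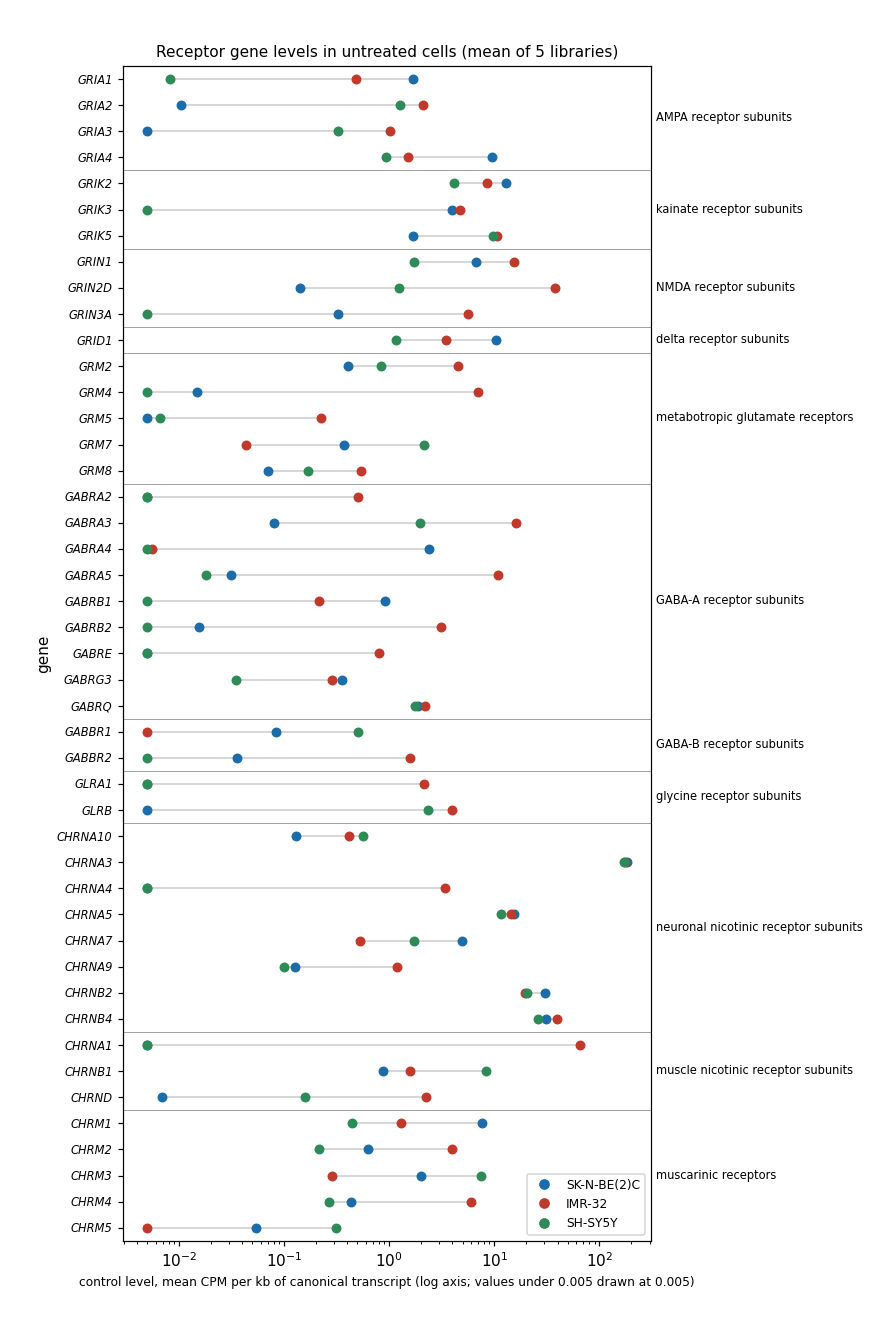
Mean level of receptor genes in untreated cells of 3 neuroblastoma lines (5 libraries each), in CPM per kilobase of canonical transcript on a log axis; each gene has 1 point per line and genes are ordered by receptor class. The members drawn had a control mean of at least 1 CPM in some line; CHRNA3 is farthest right in all 3 lines, and CHRNA1, GRIN2D and GABRA3 are spread widely between lines.

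Of the 72 members, 46 passed the filter on low counts in IMR-32 and 31 in each of the other lines, and 17 members passed in no line, 21 in 1, 15 in 2 and 19 in all 3. SK-N-BE(2)C had 4 members that rose and 5 that fell at 24 h, against 10.9% and 10.6% of all 14055 genes tested, and 11 rose and 8 fell at 7 d, against 24.5% and 22.3%. The 11 include GABBR1, whose level could not be read, as described below. Between 24 h and 7 d, 7 rose and 5 fell, against 17.5% and 14.4%. In IMR-32, 2 rose and 7 fell at 24 h, against 7.87% and 10.5% of 14293 genes, and 6 rose and 14 fell at 5 d, against 16.6% and 15.5%. From 24 h to 5 d, 7 rose and 8 fell in IMR-32, against 10.8% and 8.86%. In SH-SY5Y, 12 rose and 5 fell at 24 h, against 10.5% and 11.0% of 14547 genes, and 12 rose and 4 fell at 5 d, against 18.6% and 17.3%. From 24 h to 5 d, 5 rose and 2 fell in SH-SY5Y, against 10.5% and 6.23%.

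As shares of the members tested, 29.0% were called at 24 h in SK-N-BE(2)C, 54.8% in SH-SY5Y and 19.6% in IMR-32, and 61.3%, 51.6% and 43.5% at the longer time. Of all genes, in that order, 10.9% rose and 10.6% fell, 10.5% and 11.0%, and 7.87% and 10.5% at 24 h. At the longer time these shares were 24.5% and 22.3%, 18.6% and 17.3%, and 16.6% and 15.5%. In the same order of lines, the median log2 fold change of the members tested was 0.16, 0.21 and -0.017 at 24 h, beside 0.023, 0.037 and 0.060 over all genes, and 0.26, 0.45 and 0.14 at the longer time, beside 0.012, 0.011 and 0.0028. Shares of all genes were not computed without replicate 5 or with the replicate number as a block. Whether the calls gained in those settings are particular to the members therefore cannot be told. Without replicate 5, IMR-32 gave 3 higher and 9 lower at 24 h, 9 higher and 17 lower at 5 d, and 12 higher and 10 lower from 24 h to 5 d. With the replicate number as a block, IMR-32 gave 3 higher and 11 lower at 24 h. The members gained there were CHRND (log2 fold change with the block of 0.96 ± 0.24, edgeR adjusted p = 0.006), GABRE (log2 fold change with the block of -1.40 ± 0.25, edgeR adjusted p = 0.000609), GLRA1 (log2 fold change with the block of -0.50 ± 0.19, edgeR adjusted p = 0.0416), GRIN3A (log2 fold change with the block of -0.72 ± 0.27, edgeR adjusted p = 0.0455) and GRM5 (log2 fold change with the block of -1.15 ± 0.40, edgeR adjusted p = 0.0332).

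**Figure D2:**
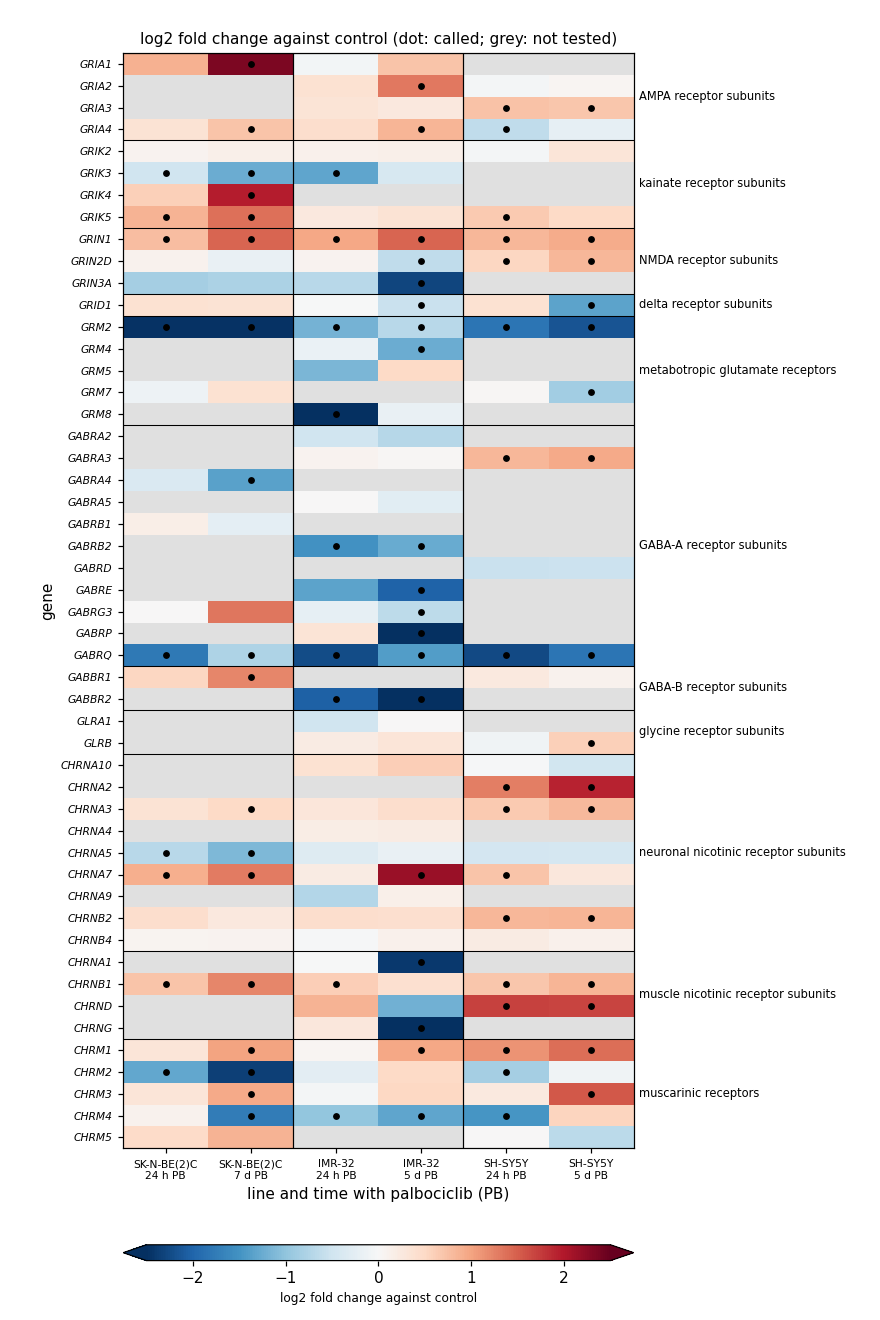
log2 fold change against the control (colour, from -2.5 to 2.5) for receptor genes tested in at least 1 line, by receptor class, at 24 h and at the longer time with PB in each line; a dot marks a called gene and grey a gene not tested in that line. GRIN1 is red with a dot in all 6 columns and GABRQ and GRM2 are blue with a dot in all 6.

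GRIN1, CHRNB1, CHRM1, GABRQ and GRM2 were the members called in 1 direction in all 3 lines at a given time. GRIN1, the subunit that every NMDA receptor requires, rose in each line at 24 h and at the longer time. CHRNB1, the beta subunit of the muscle nicotinic receptor, rose in each line at 24 h, and CHRM1, a muscarinic receptor coupled to Gq, in each line at the longer time. GABRQ, the theta subunit of GABA-A receptors, and GRM2, a metabotropic glutamate receptor that lowers cyclic AMP, fell in each line at both times. Of the 19 members tested in all 3 lines, 2 thus rose and 2 fell in all of them at 24 h, against 2.84% and 5.81% of the 12556 genes tested in all, and 2 rose and 2 fell at the longer time, against 6.91% and 6.50%. No member was called in opposite directions at 24 h, and 2 were at the longer time, among them GRIN2D, against 0.225% and 2.83% of the 14199 genes tested in 2 or 3 lines. The 3 lines have separate controls, so these are 3 separate comparisons.

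**Figure D3:**
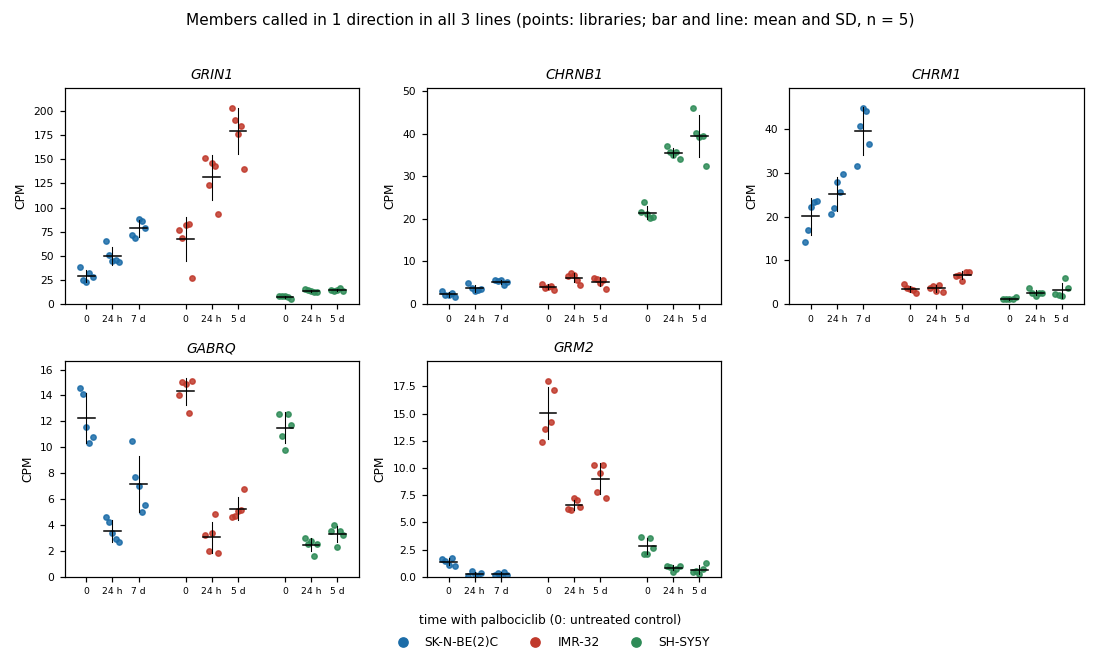
Scaled CPM of GRIN1, CHRNB1, CHRM1, GABRQ and GRM2 in each library (points), with mean (bar) and SD (line) of 5 libraries per group, by line and time with PB (0 is the untreated control). GRIN1, CHRNB1 and CHRM1 climb from different control levels, while GABRQ starts between 9.77 and 15.1 CPM in every control library and drops in all 3 lines.

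GRIN1 (chr9:140032798-140063208, plus strand, GRCh37) had 38.4, 24.4, 22.8, 31.6 and 28.0 CPM in the SK-N-BE(2)C controls, 65.4, 50.3, 44.3, 45.3 and 43.1 at 24 h and 71.8, 68.1, 87.7, 85.7 and 78.6 at 7 d. In IMR-32 the controls had 76.2, 68.5, 81.7, 82.5 and 27.0 CPM, the 24 h libraries 151, 124, 146, 143 and 93.4 and the 5 d libraries 203, 191, 176, 185 and 140.2. In SH-SY5Y the values were 7.79, 8.25, 8.47, 7.33 and 5.50 CPM, then 14.96, 14.3, 13.1, 12.8 and 12.6 at 24 h and 14.3, 13.5, 14.6, 16.8 and 12.98 at 5 d. Every treated library lay above every control library of its line, and in IMR-32 replicate 5 was the lowest of each group. At the longer time GRIN1 had risen in SH-SY5Y (log2 fold change of 0.93 ± 0.11, edgeR adjusted p = 6.42e-07), SK-N-BE(2)C (log2 fold change of 1.45 ± 0.14, edgeR adjusted p = 1.98e-07) and IMR-32 (log2 fold change of 1.46 ± 0.23, edgeR adjusted p = 0.000153). From 24 h to the longer time GRIN1 rose further in SK-N-BE(2)C (log2 fold change of 0.67 ± 0.14, edgeR adjusted p = 0.000667), a call lost with replicates 3 to 5 summed, whereas the step did not pass the test in IMR-32 (log2 fold change of 0.49 ± 0.23, edgeR adjusted p = 0.115) or SH-SY5Y (log2 fold change of 0.10 ± 0.10, edgeR adjusted p = 0.458). With the replicate block the IMR-32 step was higher by just less than the fold limit (log2 fold change with the block of 0.499 ± 0.135, edgeR adjusted p = 0.00914).

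GABRQ (chrX:151806349-151826007, plus strand) lies in a group of 3 GABA-A genes on the X chromosome with GABRE and GABRA3. Its control values were 14.6, 14.1, 11.6, 10.3 and 10.8 CPM for SK-N-BE(2)C, 14.0, 15.01, 14.9, 12.7 and 15.1 for IMR-32 and 12.6, 10.9, 9.77, 12.6 and 11.7 for SH-SY5Y. In that order, at 24 h they were 4.61, 4.23, 3.36, 2.88 and 2.67 CPM, 3.20, 1.96, 3.37, 4.82 and 1.86 and 2.97, 2.55, 2.78, 1.64 and 2.49. After the longer time they were 10.5, 7.68, 6.98, 5.02 and 5.52 CPM, 4.61, 4.67, 5.09, 5.15 and 6.81 and 3.54, 3.97, 2.27, 3.56 and 3.23. The control levels did not pass the test between any pair of lines (edgeR adjusted p = 0.277, 0.648 and 0.121), no 24 h library reached a control library, and at the longer time only replicate 1 of SK-N-BE(2)C did. At 24 h it fell in SK-N-BE(2)C (log2 fold change of -1.79 ± 0.20, edgeR adjusted p = 2.45e-06), IMR-32 (log2 fold change of -2.23 ± 0.21, edgeR adjusted p = 8.36e-07) and SH-SY5Y (log2 fold change of -2.25 ± 0.16, edgeR adjusted p = 3.55e-09). From 24 h to the longer time GABRQ rose in SK-N-BE(2)C (log2 fold change of 1.01 ± 0.20, edgeR adjusted p = 0.000476) and IMR-32 (log2 fold change of 0.82 ± 0.21, edgeR adjusted p = 0.00779), while the 0.43 of SH-SY5Y was under the fold limit. The response at the longer time differed between SK-N-BE(2)C and SH-SY5Y (difference in log2 fold change, SK-N-BE(2)C minus SH-SY5Y, of 1.01 ± 0.27, edgeR adjusted p = 0.00378).

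GRM2 (chr3:51741084-51752629, plus strand) was most abundant in IMR-32, where the controls had 12.4, 13.5, 18.0, 14.2 and 17.1 CPM, the 24 h libraries 6.18, 6.17, 7.22, 7.03 and 6.36 and the 5 d libraries 10.2, 7.77, 9.53, 10.2 and 7.21. In SH-SY5Y it had 3.67, 2.07, 2.13, 3.58 and 2.63 CPM in the controls, 0.990, 0.868, 0.445, 0.731 and 1.03 at 24 h and 0.443, 0.546, 0.218, 0.751 and 1.29 at 5 d. In SK-N-BE(2)C the level was low throughout, with 1.60, 1.45, 1.11, 1.73 and 0.974 CPM in the controls and 0.133, 0.327, 0.171, 0.461 and 0.113 at 7 d. Treated and control libraries did not overlap in any line. It fell at the longer time in SK-N-BE(2)C (log2 fold change of -2.47 ± 0.48, edgeR adjusted p = 0.000243), IMR-32 (log2 fold change of -0.70 ± 0.13, edgeR adjusted p = 0.000526) and SH-SY5Y (log2 fold change of -2.16 ± 0.33, edgeR adjusted p = 1.43e-05). The response of IMR-32 differed from that of SK-N-BE(2)C (difference in log2 fold change, SK-N-BE(2)C minus IMR-32, of -1.73 ± 0.47, edgeR adjusted p = 0.00389) and of SH-SY5Y (difference in log2 fold change, IMR-32 minus SH-SY5Y, of 1.40 ± 0.39, edgeR adjusted p = 0.00595), the latter not without replicate 1.

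CHRNB1 (chr17:7348380-7361029, plus strand) shares 630 exonic bases with another annotated gene on its strand. It had 21.6, 24.0, 21.1, 20.3 and 20.5 CPM in the SH-SY5Y controls, 37.02, 35.7, 35.0, 35.8 and 34.1 at 24 h and 46.1, 40.3, 39.2, 39.5 and 32.4 at 5 d, with every treated library above every control (log2 fold change of 0.86 ± 0.076, edgeR adjusted p = 2.83e-08). It went from 2.26 ± 0.561 to 5.21 ± 0.450 CPM at 7 d in SK-N-BE(2)C (log2 fold change of 1.22 ± 0.18, edgeR adjusted p = 1.29e-05). In IMR-32, where control and 24 h libraries overlapped, it was called at 24 h (log2 fold change of 0.61 ± 0.18, edgeR adjusted p = 0.0152), a call lost without replicate 2 or replicate 3, and at 5 d it missed the threshold (log2 fold change of 0.41 ± 0.18, edgeR adjusted p = 0.0681).

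CHRM1 (chr11:62676151-62689279, minus strand) shares 313 exonic bases with a gene on the opposite strand. It had 14.2, 16.9, 22.2, 23.4 and 23.6 CPM in the SK-N-BE(2)C controls and 31.7, 40.8, 44.9, 44.2 and 36.6 at 7 d (log2 fold change of 1.001 ± 0.15, edgeR adjusted p = 1.29e-05). The IMR-32 controls had 4.63, 3.56, 3.33, 3.14 and 2.55 CPM and the 5 d libraries 6.35, 6.68, 5.32, 7.26 and 7.39 (log2 fold change of 0.98 ± 0.18, edgeR adjusted p = 0.000379). At 5 d in SH-SY5Y it had 2.31, 2.13, 1.70, 5.86 and 3.66 CPM against 1.16, 1.06, 1.02, 1.07 and 1.51 in the controls (log2 fold change of 1.40 ± 0.30, edgeR adjusted p = 0.000438). Longer-treated and control libraries did not overlap in any line. At 24 h only SH-SY5Y had passed the threshold (log2 fold change of 1.12 ± 0.30, edgeR adjusted p = 0.00503), and its 24 h response differed from that of IMR-32 (difference in log2 fold change, IMR-32 minus SH-SY5Y, of -1.10 ± 0.33, edgeR adjusted p = 0.0477), although leaving out any 1 replicate number ended that call.

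The sequences before the starts of 4 of these 5 genes are printed because the genes were called alike across lines. The RefSeq promoter table matched 53 of the 72 members, and each sequence below was placed on GRCh37 by its single exact match. Each run holds the 250 bases before the start that the RefSeq table uses, 5′ to 3′ on the gene's strand. For CHRM1 that start lies inside the gene as given above, so its window is not upstream of the outermost annotated start. Capitals mark a CAGCTG E-box, the kind of site bound by neural basic helix-loop-helix factors.
CHRNB1: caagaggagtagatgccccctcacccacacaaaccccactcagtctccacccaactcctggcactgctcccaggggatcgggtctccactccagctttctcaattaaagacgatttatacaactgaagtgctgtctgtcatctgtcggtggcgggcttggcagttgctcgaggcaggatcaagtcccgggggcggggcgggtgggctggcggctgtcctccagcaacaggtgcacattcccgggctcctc
CHRM1: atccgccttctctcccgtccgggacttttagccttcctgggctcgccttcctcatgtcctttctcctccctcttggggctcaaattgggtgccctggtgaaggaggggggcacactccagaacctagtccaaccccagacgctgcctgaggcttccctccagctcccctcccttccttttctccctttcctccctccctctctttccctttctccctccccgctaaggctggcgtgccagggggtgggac
GABRQ: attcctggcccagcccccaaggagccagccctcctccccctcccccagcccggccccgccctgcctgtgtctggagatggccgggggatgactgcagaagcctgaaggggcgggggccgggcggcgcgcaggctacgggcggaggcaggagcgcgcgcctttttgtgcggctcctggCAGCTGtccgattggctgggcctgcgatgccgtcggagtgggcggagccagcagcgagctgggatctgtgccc
GRM2: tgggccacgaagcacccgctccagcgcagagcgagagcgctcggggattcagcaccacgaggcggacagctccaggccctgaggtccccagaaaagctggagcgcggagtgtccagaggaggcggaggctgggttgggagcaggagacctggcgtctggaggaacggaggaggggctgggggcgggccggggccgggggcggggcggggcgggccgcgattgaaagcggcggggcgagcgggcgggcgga
The windows lay at chr17:7348130-7348379 (CHRNB1, plus strand), chr11:62688836-62689085 (CHRM1, minus strand), chrX:151806099-151806348 (GABRQ, plus strand) and chr3:51740834-51741083 (GRM2, plus strand). Their content of G and C was 60.4%, 62.0%, 73.2% and 74.4%. Motifs were searched on both strands. The E2F word had 4 forms, with TTCCCGC as the first form, TTGGCGC as the second form, TTCGCGC as the third form and TTGCCGC as the fourth form. The cell-cycle CHR element was TTTGAA. The first E-box, bound by MYC proteins, was CACGTG. The other E-box was the one marked above, CAGCTG. In these 4 windows the search found 1 match, a CAGCTG in GABRQ beginning 73 bases before the start. An E2F word was in 10.9% of all 35116 promoters of this length and in 17.0% of the 53 members, TTTGAA in 13.3% and 11.3%, CACGTG in 6.34% and 3.77%, and CAGCTG in 14.0% and 13.2%.

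AMPA receptor subunits carry fast excitatory current. GRIA1 in SK-N-BE(2)C had 11.3, 13.7, 8.67, 7.88 and 5.73 CPM in the controls, 22.9, 23.8, 14.0, 13.7 and 13.05 at 24 h and 49.5, 103, 36.6, 23.8 and 30.7 at 7 d. Each 7 d library was above the controls, and replicate 2 was the highest (log2 fold change of 2.36 ± 0.38, edgeR adjusted p = 5.51e-05). The 24 h change missed the threshold (log2 fold change of 0.88 ± 0.38, edgeR adjusted p = 0.0694) and passed it with the replicate block (log2 fold change with the block of 0.91 ± 0.17, edgeR adjusted p = 0.000879). In IMR-32, GRIA1 was at 2.71 ± 1.29 CPM in the controls and 4.31 ± 1.38 CPM at 5 d and was called only with the block (log2 fold change with the block of 0.81 ± 0.29, edgeR adjusted p = 0.0249). GRIA4 rose at the longer time in SK-N-BE(2)C, from 52.8 ± 10.8 to 85.5 ± 8.15 CPM (log2 fold change of 0.70 ± 0.13, edgeR adjusted p = 0.000124), and in IMR-32 (log2 fold change of 0.84 ± 0.31, edgeR adjusted p = 0.0323), a call lost when replicate 1, 2 or 4 was left out. In SH-SY5Y it was lower at 24 h (log2 fold change of -0.63 ± 0.18, edgeR adjusted p = 0.00678) and not called at 5 d. GRIA2, which sets low calcium permeability, and GRIA3 are named after their values were seen: GRIA2 rose in IMR-32 from 11.8 ± 4.17 to 28.7 ± 9.24 CPM (log2 fold change of 1.3201 ± 0.35, edgeR adjusted p = 0.00637), and GRIA3 in SH-SY5Y from 1.67 ± 0.230 to 2.74 ± 0.332 CPM (log2 fold change of 0.70 ± 0.17, edgeR adjusted p = 0.00119).

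Kainate receptors are built from the products of GRIK genes. GRIK5, a subunit that needs a partner to form a channel, rose in SK-N-BE(2)C from 7.66 ± 2.11 to 19.6 ± 6.96 CPM at 7 d (log2 fold change of 1.38 ± 0.26, edgeR adjusted p = 0.000197) and in SH-SY5Y at 24 h, from 43.5 ± 4.26 to 69.9 ± 3.78 CPM (log2 fold change of 0.66 ± 0.070, edgeR adjusted p = 4.4e-07). GRIK4, the other subunit of that kind, had 0.332, 0.981, 1.93, 1.21 and 1.69 CPM at 7 d in SK-N-BE(2)C, against 0.300, 0.281, 0.582, 0.0788 and 0.286 in the controls, with replicate 1 in the control range (log2 fold change of 1.97 ± 0.46, edgeR adjusted p = 0.00102). GRIK3, which forms channels by itself, fell in SK-N-BE(2)C from 52.5, 40.3, 30.2, 32.4 and 31.4 CPM to 20.7, 12.3, 16.7, 14.996 and 14.2 at 7 d (log2 fold change of -1.24 ± 0.20, edgeR adjusted p = 5.62e-05). In IMR-32 it fell at 24 h, from 44.998, 42.3, 39.7, 48.3 and 47.2 CPM to 18.1, 10.1, 17.5, 22.8 and 20.3 (log2 fold change of -1.324 ± 0.24, edgeR adjusted p = 0.000586), and rose again to 29.6, 24.7, 31.5, 20.5 and 55.9 at 5 d (log2 fold change of 0.90 ± 0.24, edgeR adjusted p = 0.00874), with replicate 5 the highest. GRIK2 was at 60.7 ± 7.29, 40.6 ± 2.88 and 19.7 ± 1.11 CPM in the 3 controls and was called in no comparison with a control.

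Other NMDA subunits bind glutamate or glycine and assemble with the product of GRIN1. GRIN2A and GRIN2B, the subunits of most forebrain NMDA receptors and named after their values were seen, had 5 counts and 1 count in all 45 libraries together. GRIN2D fell in IMR-32, from 234, 193, 194, 227 and 185 CPM to 135, 102, 118, 107 and 186 at 5 d (log2 fold change of -0.64 ± 0.14, edgeR adjusted p = 0.0015), with replicate 5 still inside the control range. In SH-SY5Y it rose, from 6.79, 6.61, 6.48, 9.43 and 5.16 CPM to 17.6, 14.0, 12.5, 12.7 and 5.82 (log2 fold change of 0.84 ± 0.21, edgeR adjusted p = 0.00181), and replicate 5 again lay inside the control range. The responses of the 2 lines differed (difference in log2 fold change, IMR-32 minus SH-SY5Y, of -1.53 ± 0.26, edgeR adjusted p = 1.5e-05). GRIN3A, a subunit that lowers calcium entry, had 41.6, 45.3, 51.2, 34.0 and 46.2 CPM in the IMR-32 controls, 28.3, 21.3, 40.9, 26.3 and 18.0 at 24 h and 4.91, 3.21, 15.2, 6.72 and 13.4 at 5 d. All 5 d libraries lay below all controls and below all 24 h libraries (log2 fold change of -2.29 ± 0.35, edgeR adjusted p = 0.000112).

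GRIN2C was at or near 0 in every group but 1. The SK-N-BE(2)C libraries held 4 counts of it in the 5 controls together and 3 at 24 h, and 320 at 7 d, where the libraries held 0.266, 5.78, 7.37, 0.865 and 1.30 CPM. The level at 7 d varied between libraries, with replicates 2 and 3 highest and replicate 1 lowest. The cell-cycle markers summed to 483.4, 116.0, 81.4, 321.1 and 274.8 CPM in the same libraries, and their part in this spread was not tested. GRIN2C did not pass the filter within the line, and the 45-library fit called its response higher than that of IMR-32 (difference in log2 fold change, SK-N-BE(2)C minus IMR-32, of 5.41 ± 1.14, edgeR adjusted p = 0.000276) and of SH-SY5Y (difference in log2 fold change, SK-N-BE(2)C minus SH-SY5Y, of 5.18 ± 1.25, edgeR adjusted p = 0.0014), fold changes that rest on near-zero controls.

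GRID1, a delta subunit that organises synapses with cerebellins, fell in SH-SY5Y and IMR-32. In SH-SY5Y it had 6.10, 6.95, 5.37, 7.11 and 9.98 CPM in the controls and 1.52, 2.23, 2.10, 3.31 and 5.17 at 5 d (log2 fold change of -1.33 ± 0.28, edgeR adjusted p = 0.000424), and in IMR-32 it went from 21.5 ± 0.833 to 14.2 ± 1.12 CPM (log2 fold change of -0.56 ± 0.081, edgeR adjusted p = 5.11e-05). At 7 d in SK-N-BE(2)C it was higher by less than the fold limit (log2 fold change of 0.36 ± 0.075, edgeR adjusted p = 0.000469). The longer response of SK-N-BE(2)C differed from that of SH-SY5Y (difference in log2 fold change, SK-N-BE(2)C minus SH-SY5Y, of 1.66 ± 0.23, edgeR adjusted p = 7.2e-07) and of IMR-32 (difference in log2 fold change, SK-N-BE(2)C minus IMR-32, of 0.95 ± 0.21, edgeR adjusted p = 0.000607).

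**Figure D4:**
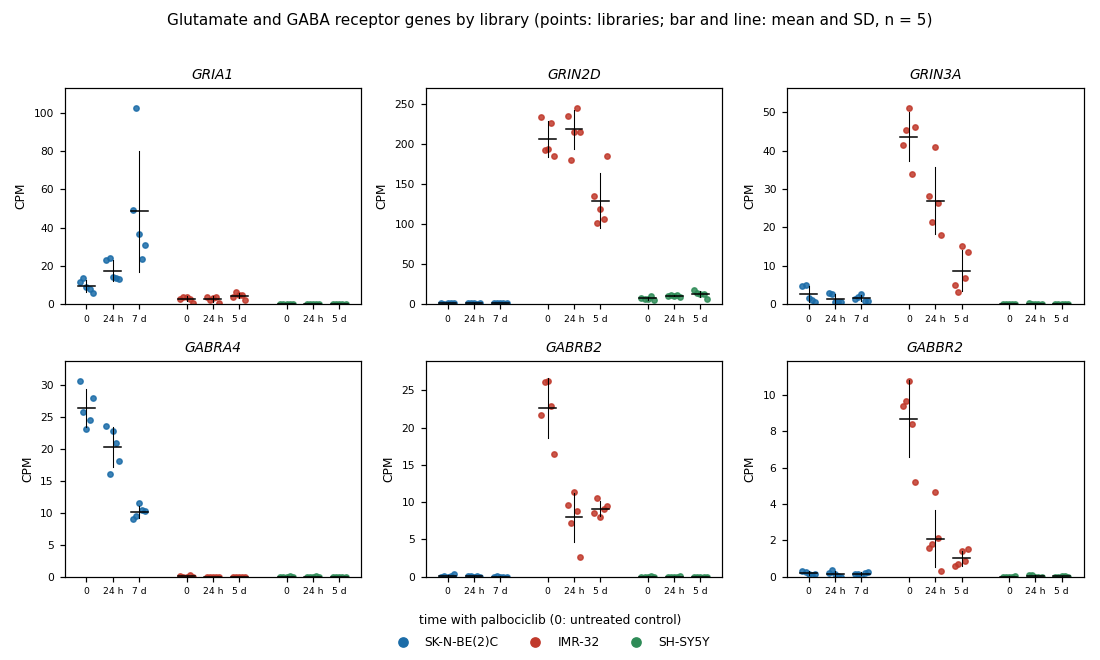
Scaled CPM of GRIA1, GRIN2D, GRIN3A, GABRA4, GABRB2 and GABBR2 in each library (points), with mean (bar) and SD (line) of 5 libraries per group, by line and time with PB. GRIA1 is highest at 7 d in SK-N-BE(2)C, with 1 library at 103 CPM, and GRIN3A, GABRB2 and GABBR2 drop in IMR-32, the line in which they are most abundant.

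The remaining metabotropic glutamate receptors were found mainly in IMR-32. GRM4, which lowers cyclic AMP at nerve endings, had 57.9, 56.1, 49.1, 59.8 and 35.7 CPM in its controls and 17.9, 17.9, 21.1, 15.1 and 34.7 at 5 d, where replicate 5 was the lowest of the controls and the highest at 5 d and the groups did not overlap (log2 fold change of -1.24 ± 0.21, edgeR adjusted p = 0.000175). GRM8, of the same group, dipped at 24 h: its values were 2.41, 2.04, 2.41, 2.88 and 0.365 CPM, then 0.367, 0.112, 0.107, 0.349 and 0.0663 at 24 h (log2 fold change of -3.27 ± 0.68, edgeR adjusted p = 0.00185) and 1.86, 3.48, 0.643, 2.33 and 0.346 at 5 d (from 24 h, log2 fold change of 3.09 ± 0.69, edgeR adjusted p = 0.00316). The replicate 5 control lay within the range of the 24 h libraries. GRM7 was most abundant in SH-SY5Y and fell there from 7.79, 12.1, 9.29, 7.69 and 7.79 CPM to 7.53, 5.36, 3.41, 4.31 and 4.31 at 5 d (log2 fold change of -0.86 ± 0.20, edgeR adjusted p = 0.001). GRM5, a receptor coupled to Gq, rose from 24 h to 5 d in IMR-32 (log2 fold change of 1.65 ± 0.58, edgeR adjusted p = 0.0373), a call lost when any 1 of replicates 1 to 4 was left out.

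Of the GABA-A subunits tested at the longer time, 0 of 7 rose and 3 fell in SK-N-BE(2)C, against 24.5% and 22.3% of all genes. Of these 7, GABRG3 missed the threshold (log2 fold change of 1.34, edgeR adjusted p = 0.0565) and was called higher with the block (log2 fold change with the block of 1.36 ± 0.15, edgeR adjusted p = 2.37e-06). The replicate numbers did not correlate in every pair with 7 d in that line. In IMR-32, 1 of 10 rose and 5 fell, against 16.6% and 15.5%, and GABRA2 was also called lower with the block (log2 fold change with the block of -0.68 ± 0.24, edgeR adjusted p = 0.0253). Of the 4 tested in SH-SY5Y, 1 rose and 1 fell, against 18.6% and 17.3%. Their summed CPM was 28.0 ± 2.12 in the SH-SY5Y controls and 29.6 ± 4.58 at 5 d, 334 ± 64.5 and 353 ± 36.2 in IMR-32, and 339 ± 3.40 and, at 7 d, 359 ± 55.5 in SK-N-BE(2)C. GABRA4, an alpha subunit of receptors outside synapses, had 30.7, 25.8, 23.2, 24.6 and 28.1 CPM in the SK-N-BE(2)C controls, 23.6, 16.1, 22.9, 20.9 and 18.1 at 24 h and 9.04, 9.59, 11.5, 10.4 and 10.3 at 7 d. All 7 d libraries were below all others (log2 fold change of -1.37 ± 0.11, edgeR adjusted p = 2.05e-08), and the 24 h change was under the fold limit (log2 fold change of -0.38 ± 0.11, edgeR adjusted p = 0.00864). GABRB2, another beta subunit, fell in IMR-32 from 21.7, 26.1, 26.3, 22.8 and 16.5 CPM to 9.59, 7.24, 11.4, 8.83 and 2.65 at 24 h (log2 fold change of -1.505 ± 0.26, edgeR adjusted p = 0.00035) and 8.50, 10.6, 7.95, 9.10 and 9.52 at 5 d (log2 fold change of -1.27 ± 0.25, edgeR adjusted p = 0.000769). GABRE, the epsilon subunit, fell there from 2.52 ± 1.27 to 0.593 ± 0.462 CPM (log2 fold change of -2.03 ± 0.53, edgeR adjusted p = 0.00483).

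GABRA3 was not tested in SK-N-BE(2)C, rose in SH-SY5Y from 6.75, 9.55, 5.95, 6.71 and 7.35 CPM to 16.7, 16.4, 13.9, 13.03 and 11.2 at 5 d (log2 fold change of 0.95 ± 0.12, edgeR adjusted p = 2.47e-06), and was at 59.4 ± 13.5 CPM in the controls and 58.7 ± 4.16 CPM at 5 d in IMR-32 (difference in log2 fold change, IMR-32 minus SH-SY5Y, of -0.99 ± 0.29, edgeR adjusted p = 0.00786, not without replicate 1 or 3). The pi subunit GABRP was at most 20 counts in any library and is given here by its counts only, 52 in the 5 IMR-32 controls, 59 at 24 h and 0 at 5 d, which allows up to 3 counts per library.

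Neighbouring GABA-A genes did not share one pattern. GABRA4 and GABRB1 lie in a group of 4 genes on chromosome 4 (chr4:46037786-47428464), and in SK-N-BE(2)C GABRB1 was called in no comparison. Of the X-linked group (chrX:151121596-151826007), GABRQ and GABRE fell in IMR-32 while GABRA3 was not called (log2 fold change of 0.024 ± 0.18, edgeR adjusted p = 0.922).

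The GABA-B receptor needs the products of both GABBR1 and GABBR2. GABBR2 was at 1 CPM or more in IMR-32 only, with 9.41, 9.68, 10.8, 8.38 and 5.23 CPM in the controls, 1.57, 1.80, 4.66, 2.15 and 0.331 at 24 h and 0.599, 0.706, 1.40, 0.867 and 1.5005 at 5 d. Treated and control libraries did not overlap (log2 fold change of -3.05 ± 0.45, edgeR adjusted p = 6.78e-05), and among members with a control mean of at least 1 CPM no other had a lower log2 fold change at 5 d in IMR-32. GABBR1 (chr6:29523406-29601753, minus strand) had 1 count in the 15 IMR-32 libraries and means of 0.380 ± 0.156 and 2.29 ± 0.457 CPM in the SK-N-BE(2)C and SH-SY5Y controls. Several broadly expressed genes of the same stretch of chromosome 6 were also near 0 in these tables: BAG6 had a mean of 0.532 CPM or less in each line, and CSNK2B, GNL1 and ABCF1 of 0.0183 CPM or less. TUBB, a beta-tubulin gene there, was not near 0 in every line, with means of 35.1 CPM in SK-N-BE(2)C, 97.1 CPM in IMR-32 and 0.745 CPM in SH-SY5Y. The level of GABBR1 therefore could not be read from these counts, and the reason was not tested. Among glycine receptor subunits, GLRB, the subunit that ties the receptor to the synapse, rose in SH-SY5Y from 6.02, 8.44, 7.31, 6.79 and 6.72 CPM to 10.2, 10.5, 10.1, 12.4 and 10.7 at 5 d (log2 fold change of 0.59 ± 0.13, edgeR adjusted p = 0.000461), and GLRA1 was at 3.86 ± 0.158 CPM in the IMR-32 controls and 3.79 ± 1.15 CPM at 5 d.

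Acetylcholine receptors were 14 of the 31 members tested in SH-SY5Y. Of these 14, 7 rose and 2 fell at 24 h, against 10.5% and 11.0% of all genes, and 7 rose and 0 fell at 5 d, against 18.6% and 17.3%. With the replicate block 1 more was called at 5 d, the muscarinic receptor CHRM5, which was lower (log2 fold change with the block of -0.71 ± 0.27, edgeR adjusted p = 0.0272). SK-N-BE(2)C had 5 of 11 acetylcholine receptors higher and 3 lower at 7 d, against 24.5% and 22.3% of all genes. With the block CHRNA3 was no longer among these 5 (log2 fold change with the block of 0.499 ± 0.077, edgeR adjusted p = 4.58e-05). IMR-32 had 2 of 16 higher and 3 lower at 5 d, against 16.6% and 15.5%, to which the block added CHRM3 (higher) and CHRND (lower). CHRNA3 had 536, 570.4, 437, 561 and 504 CPM in the SH-SY5Y controls, 876, 910.2, 749.8, 845 and 788 at 24 h and 989, 1020.2, 896, 944 and 789.6 at 5 d (log2 fold change of 0.81 ± 0.085, edgeR adjusted p = 1.97e-07). The SK-N-BE(2)C values were 550.3, 546, 562, 555 and 556 CPM in the controls and 712, 614, 808, 903 and 868 at 7 d (log2 fold change of 0.51 ± 0.080, edgeR adjusted p = 2.66e-05), a value at the fold limit whose call was lost in 9 of 20 settings that left out a library or replicate number, and with replicates 3 to 5 summed. In IMR-32 the controls had 576, 594, 526, 597 and 334 CPM and the 5 d libraries 773, 790.1, 653, 764 and 492, and the change missed the threshold (log2 fold change of 0.45 ± 0.19, edgeR adjusted p = 0.0622). CHRNB2 rose in SH-SY5Y from 121 ± 10.3 to 222 ± 15.6 CPM (log2 fold change of 0.85 ± 0.073, edgeR adjusted p = 1.74e-08) and was higher by less than the fold limit in the other lines (0.26 ± 0.053 and 0.42 ± 0.091). The longer responses of SK-N-BE(2)C and SH-SY5Y differed for it (difference in log2 fold change, SK-N-BE(2)C minus SH-SY5Y, of -0.63 ± 0.11, edgeR adjusted p = 1.63e-05).

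CHRNA5, CHRNA3 and CHRNB4 form a cluster on chromosome 15 (chr15:78857862-79020096), in which CHRNA5 lies on the plus strand and the others on the minus strand. CHRNA5, an accessory subunit of the ganglionic receptor, fell in SK-N-BE(2)C, where CHRNA3 rose. Its values there were 66.5, 51.2, 51.6, 61.5 and 49.2 CPM in the controls, 40.1, 30.7, 32.1, 33.3 and 36.5 at 24 h (log2 fold change of -0.70 ± 0.18, edgeR adjusted p = 0.00535, a call lost with replicates 3 to 5 summed) and 40.3, 16.0, 19.96, 24.9 and 27.7 at 7 d (log2 fold change of -1.12 ± 0.18, edgeR adjusted p = 5.73e-05), with no treated library in the control range. In SH-SY5Y it was lower by less than the fold limit (log2 fold change of -0.44 ± 0.071, edgeR adjusted p = 2.42e-05). The fall in SK-N-BE(2)C differed from the response of IMR-32 (difference in log2 fold change, SK-N-BE(2)C minus IMR-32, of -0.91 ± 0.24, edgeR adjusted p = 0.00328) and of SH-SY5Y (difference in log2 fold change, SK-N-BE(2)C minus SH-SY5Y, of -0.70 ± 0.24, edgeR adjusted p = 0.0244), the latter not without replicate 2, 3 or 4. The exons of CHRNA5 and CHRNA3 overlap at their ends on opposite strands, and the sources used here do not give the strand setting of the counting, so some of their reads may have been assigned to either gene. CHRNB4, named for its place in the cluster after its values were seen, was at 81.3 ± 5.56 and 86.0 ± 9.26 CPM in the SK-N-BE(2)C controls and at 7 d and was called in no comparison with a control.

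CHRNA7 encodes a channel that passes calcium and can form from this subunit alone. In SK-N-BE(2)C CHRNA7 had 34.3, 29.6, 26.6, 30.2 and 31.0 CPM in the controls, 63.4, 60.5, 49.9, 56.3 and 53.7 at 24 h and 72.4, 78.2, 72.2, 75.8 and 73.8 at 7 d, 3 levels without overlap (log2 fold change of 1.31 ± 0.073, edgeR adjusted p = 3.21e-10). In IMR-32 it rose late, from 3.61, 4.39, 2.64, 3.93 and 1.52 CPM to 19.5, 21.9, 9.42, 15.6 and 3.40 at 5 d (log2 fold change of 2.15 ± 0.49, edgeR adjusted p = 0.00227), with replicate 5 inside the control range. In SH-SY5Y it rose at 24 h, from 12.5, 10.1, 8.08, 11.9 and 10.5 CPM to 24.0, 17.4, 13.3, 16.0 and 18.9 (log2 fold change of 0.72 ± 0.15, edgeR adjusted p = 0.000774), and at 5 d it had 13.03, 12.7, 11.3, 17.1 and 11.9 CPM and missed the threshold (log2 fold change of 0.29 ± 0.15, edgeR adjusted p = 0.109). The longer response of IMR-32 differed from that of SH-SY5Y (difference in log2 fold change, IMR-32 minus SH-SY5Y, of 1.79 ± 0.41, edgeR adjusted p = 0.000901). CHRFAM7A holds a near-identical copy of part of CHRNA7 and was itself at 6.58 CPM on average over the SK-N-BE(2)C libraries, 1.68 in IMR-32 and 1.56 in SH-SY5Y, so reads of the shared part could have been split between them or dropped. CHRFAM7A was itself higher at 7 d in SK-N-BE(2)C (log2 fold change of 1.47 ± 0.13, edgeR adjusted p = 3.52e-08) and at 5 d in IMR-32 (log2 fold change of 2.03 ± 0.47, edgeR adjusted p = 0.00235). At 5 d in SH-SY5Y it was lower (log2 fold change of -0.65 ± 0.24, edgeR adjusted p = 0.0243). How far the CHRNA7 values rest on shared reads was not tested.

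**Figure D5:**
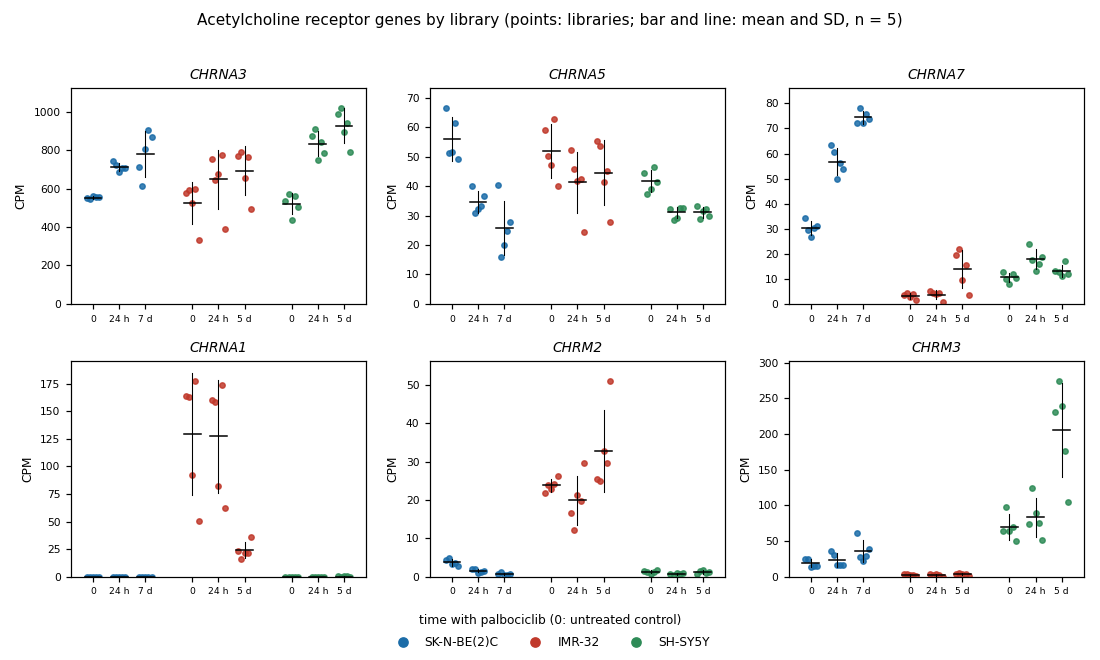
Scaled CPM of CHRNA3, CHRNA5, CHRNA7, CHRNA1, CHRM2 and CHRM3 in each library (points), with mean (bar) and SD (line) of 5 libraries per group, by line and time with PB. CHRNA3 is above 330 CPM in every library, CHRNA1 is seen in IMR-32 and drops at 5 d, and CHRM3 is highest at 5 d in SH-SY5Y.

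CHRNA1, at 50 CPM or more in every IMR-32 control, fell in that line at 5 d. It had 164, 163, 92.3, 178 and 50.1 CPM in the IMR-32 controls, 159.9, 159, 82.0, 174 and 62.4 at 24 h and 23.6, 16.3, 21.6, 21.7 and 35.8 at 5 d. The replicates ranked in the same order in the controls and at 24 h, while all 5 d libraries lay below all of them (log2 fold change of -2.40 ± 0.37, edgeR adjusted p = 0.000127). CHRND, the delta subunit, had 14.98, 16.8, 9.15, 16.8 and 2.45 CPM at 24 h and 3.95, 2.55, 2.81, 3.31 and 1.27 at 5 d (log2 fold change of -2.08 ± 0.61, edgeR adjusted p = 0.0167), a call lost when any 1 of replicates 1 to 4 was left out. Against the control it was called only with the block, higher at 24 h (the value given above) and lower at 5 d (log2 fold change with the block of -1.02 ± 0.27, edgeR adjusted p = 0.00546). CHRNG, the gamma subunit of the fetal receptor and named after its values were seen, had 45 counts in the 5 IMR-32 controls, 48 at 24 h and 2 at 5 d. In SH-SY5Y, CHRND rose from 0.232, 0.772, 0.194, 0.805 and 0.341 CPM to 1.28, 0.992, 2.18, 2.00 and 1.13 at 5 d (log2 fold change of 1.68 ± 0.37, edgeR adjusted p = 0.000634), a response that differed from that of IMR-32 (difference in log2 fold change, IMR-32 minus SH-SY5Y, of -2.95 ± 0.70, edgeR adjusted p = 0.00127).

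Among muscarinic receptors, CHRM3, which is coupled to Gq, rose in SH-SY5Y from 64.4, 98.4, 63.5, 70.4 and 49.5 CPM to 230.2, 275, 239, 177 and 105 at 5 d, without overlap (log2 fold change of 1.55 ± 0.27, edgeR adjusted p = 0.000185). At 24 h it had 74.2, 125, 89.7, 75.6 and 51.7 CPM and was not called (log2 fold change of 0.24 ± 0.27, edgeR adjusted p = 0.497). CHRM3 went in SK-N-BE(2)C from 25.0, 24.6, 14.2, 14.4 and 14.8 CPM to 61.4, 27.5, 21.7, 28.8 and 39.3 at 7 d (log2 fold change of 0.94 ± 0.32, edgeR adjusted p = 0.0153), with overlap, a call lost without the 7 d library of replicate 1, without replicate 5 or with replicates 3 to 5 summed. With the block CHRM3 was called in IMR-32 at 5 d (log2 fold change with the block of 0.54 ± 0.21, edgeR adjusted p = 0.0404), where without it the threshold was missed (log2 fold change of 0.52 ± 0.48, edgeR adjusted p = 0.375). CHRM2, which is coupled to Gi, fell in SK-N-BE(2)C from 4.40, 4.91, 3.23, 3.63 and 2.75 CPM to 1.89, 1.89, 1.06, 1.21 and 1.56 at 24 h and 0.731, 1.14, 0.557, 0.519 and 0.732 at 7 d (log2 fold change of -2.35 ± 0.25, edgeR adjusted p = 3.8e-07). In IMR-32, where it was most abundant, it had 21.7, 23.9, 22.8, 24.2 and 26.4 CPM in the controls and 25.4, 25.1, 32.7, 29.5 and 51.1 at 5 d (log2 fold change of 0.50 ± 0.21, edgeR adjusted p = 0.0618). The responses of these 2 lines differed at 24 h (difference in log2 fold change, SK-N-BE(2)C minus IMR-32, of -1.04 ± 0.32, edgeR adjusted p = 0.0382, not when any 1 of replicates 1 to 4 was left out) and at the longer time (difference in log2 fold change, SK-N-BE(2)C minus IMR-32, of -2.83 ± 0.34, edgeR adjusted p = 2.39e-08). CHRM2 was also called lower at 24 h in SH-SY5Y, a call lost in 7 settings that left out a library or replicate number. From 24 h to 5 d it was called higher in IMR-32, a call lost without replicate 3 or 4. CHRM4, also coupled to Gi, fell in IMR-32 from 19.2, 19.1, 15.5, 19.7 and 18.3 CPM to 9.74, 10.7, 7.55, 10.7 and 7.36 at 24 h and 6.71, 5.11, 5.61, 5.09 and 13.3 at 5 d (log2 fold change of -1.322 ± 0.23, edgeR adjusted p = 0.000235), with replicate 5 the highest at 5 d. It also fell in SK-N-BE(2)C at 7 d (log2 fold change of -1.74 ± 0.63, edgeR adjusted p = 0.0213), a call lost without replicate 3 or 5 or with replicates 3 to 5 summed. In SH-SY5Y, where it was low, CHRM4 fell at 24 h (log2 fold change of -1.47 ± 0.40, edgeR adjusted p = 0.00582) and rose from 24 h to 5 d (log2 fold change of 2.03 ± 0.39, edgeR adjusted p = 0.000508).

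The responses of the 3 lines were compared directly in the fit of all 45 libraries, in which 56 members were tested. At 24 h, 3 members differed between SK-N-BE(2)C and IMR-32 (CHRM2 and GRM8 among them), against 4.49% of all genes, and 1 between IMR-32 and SH-SY5Y (CHRM1), against 3.07%. Between SK-N-BE(2)C and SH-SY5Y edgeR called 0 members, against 2.04% of all genes, with 6 members at an unadjusted p under 0.05 and 1 called by DESeq2. At the longer time 14 members differed between SK-N-BE(2)C and IMR-32 (10 higher and 4 lower in SK-N-BE(2)C), against 23.9% of all genes. The count was 15 between SK-N-BE(2)C and SH-SY5Y (10 higher and 5 lower, with GABBR1, whose level could not be read, among the 15), against 21.2%, and 16 between IMR-32 and SH-SY5Y (9 higher and 7 lower in IMR-32), against 20.8%. These counts moved with single replicate numbers: the 15 became 7 without replicate 3, the 16 became 8 without replicate 1, and the 3 and 1 called at 24 h became 0 and 0 without replicate 1, 2 or 4. SK-N-BE(2)C was treated for 7 days and the other lines for 5, so line and time cannot be told apart in the contrasts with SK-N-BE(2)C.

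The proteins that traffic, anchor or supply these receptors were taken from 4 lists of other genes. Of 29 partners of glutamate receptors, 21 were tested in SK-N-BE(2)C, of which 12 rose and 2 fell at 7 d, against 24.5% and 22.3% of all genes. In IMR-32, 10 rose and 6 fell of 26 tested at 5 d, against 16.6% and 15.5%, and in SH-SY5Y 11 rose and 2 fell of 22, against 18.6% and 17.3%. CACNG7, an auxiliary subunit of AMPA receptors, rose in SK-N-BE(2)C from 0.811 ± 0.230 to 14.99 ± 1.46 CPM (log2 fold change of 4.23 ± 0.20, edgeR adjusted p = 5.76e-11), and CACNG8, another, in SH-SY5Y from 15.9 ± 1.19 to 42.8 ± 5.51 CPM (log2 fold change of 1.40 ± 0.090, edgeR adjusted p = 9.37e-10). DLGAP2, a scaffold protein of excitatory synapses, rose in IMR-32 (log2 fold change of 2.96 ± 0.27, edgeR adjusted p = 9.84e-07), and SHANK1, another, in SH-SY5Y (log2 fold change of 1.44 ± 0.17, edgeR adjusted p = 1.01e-06). From the same list DLGAP1 fell in IMR-32 (log2 fold change of -1.98 ± 0.42, edgeR adjusted p = 0.00108) and CACNG5 in SH-SY5Y (log2 fold change of -1.23 ± 0.38, edgeR adjusted p = 0.00827), both with overlap between the groups.

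Of 16 partners of GABA and glycine receptors, 8 of 14 tested rose and 0 fell in SK-N-BE(2)C at 7 d, against 24.5% and 22.3% of all genes. At 5 d, 3 of 14 rose and 1 fell in SH-SY5Y, against 18.6% and 17.3%, and 4 of 15 rose and 3 fell in IMR-32, against 16.6% and 15.5%. KCTD12, an auxiliary protein of GABA-B receptors, fell in IMR-32 (log2 fold change of -2.68 ± 0.22, edgeR adjusted p = 5.51e-07) and SH-SY5Y (log2 fold change of -1.64 ± 0.16, edgeR adjusted p = 2.16e-07). KCTD16, of the same list, rose in IMR-32 from a mean of 1.28 to 4.87 CPM (log2 fold change of 1.95 ± 0.33, edgeR adjusted p = 0.000216). SLC12A5, the chloride exporter that makes GABA inhibitory in mature neurons, rose in SK-N-BE(2)C from 1.14 ± 0.223 to 3.30 ± 0.559 CPM (log2 fold change of 1.52 ± 0.18, edgeR adjusted p = 1.39e-06) and in SH-SY5Y (log2 fold change of 0.87 ± 0.15, edgeR adjusted p = 6.57e-05).

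Of 13 partners of acetylcholine receptors, 3 rose and 1 fell of 7 tested in SK-N-BE(2)C, 4 rose and 2 fell of 7 in SH-SY5Y, and 4 rose and 3 fell of 11 in IMR-32, beside the same shares of all genes. RIC3, a chaperone for CHRNA7 and other nicotinic subunits, rose in SK-N-BE(2)C (log2 fold change of 1.80 ± 0.16, edgeR adjusted p = 5.82e-08), IMR-32 (log2 fold change of 0.99 ± 0.21, edgeR adjusted p = 0.00106) and SH-SY5Y (log2 fold change of 1.16 ± 0.12, edgeR adjusted p = 1.16e-07). AGRN, which clusters nicotinic receptors at the nerve-muscle junction, rose in SK-N-BE(2)C from 34.0 ± 7.40 to 165 ± 25.8 CPM (log2 fold change of 2.30 ± 0.18, edgeR adjusted p = 1.68e-08) and in SH-SY5Y (log2 fold change of 0.95 ± 0.094, edgeR adjusted p = 9.86e-08), and its receptor subunit LRP4 fell in SK-N-BE(2)C (log2 fold change of -1.44 ± 0.26, edgeR adjusted p = 0.000116) and IMR-32 (log2 fold change of -2.88 ± 0.86, edgeR adjusted p = 0.0123). Of 22 genes of transmitter synthesis and transport, 4 of 10 tested rose and 2 fell in SK-N-BE(2)C, 8 of 12 rose and 1 fell in SH-SY5Y, and 1 of 14 rose and 2 fell in IMR-32, against 24.5% and 22.3%, 18.6% and 17.3%, and 16.6% and 15.5% of all genes in these lines. ACHE, which breaks down acetylcholine, rose from 8.19 ± 2.65 to 46.0 ± 18.6 CPM in SH-SY5Y (log2 fold change of 2.47 ± 0.35, edgeR adjusted p = 2.27e-05) and in SK-N-BE(2)C from 1.20 ± 0.319 to 11.6 ± 2.11 CPM (log2 fold change of 3.26 ± 0.19, edgeR adjusted p = 3.93e-10). ABAT, which breaks down GABA, rose in SK-N-BE(2)C (log2 fold change of 2.54 ± 0.18, edgeR adjusted p = 9.27e-09) and IMR-32 (log2 fold change of 1.39 ± 0.32, edgeR adjusted p = 0.00217).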

How the data were processed

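The authors sequenced polyA RNA (directional kit, paired reads) and deposited raw read counts per gene for each line. The submitters' processing notes name Trim Galore 0.6.4, STAR 2.6.1d, DESeq2 1.32.0 and hg19; the annotation and strand setting of the counting are not given in the sources used here. Neither the CPM tables that were deposited nor the authors' own tables of fold changes and p-values were used. From the counts, edgeR 4.0.16 (R 4.3.3, limma 3.58.1; TMM factors, filterByExpr with its minimum count of 10, minimum total of 15 and minimum share of 0.7, robust quasi-likelihood fit) was run on the 15 libraries of each line and on all 45 for contrasts between lines. Calls needed a log2 fold change beyond 0.5 in either direction together with an adjusted p of less than 0.05. Printed CPM were scaled by the TMM factors of the 45-library fit, so SDs and folds can differ slightly from the fits within a line. The deepest and shallowest libraries held 25441812 and 13459219 counts, which sets counting error only. The steps were tested on simulated data.

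Members, marker lists, partner lists and tests were chosen with earlier results of these data known, and the promoter motifs after seeing the results. Named with values were members called alike in all 3 lines, the most abundant 2 of each class, up to 8 called members with the largest change per comparison (at least 1 CPM in a group), members called in opposite directions, and up to 5 with the largest difference in response between lines, 41 in all, of which some are not reported here. Others given values (GRIA2, GRIA3, GRIN2A, GRIN2B, CHRNB4, CHRNG, CHRM5, GABRA2, GABRG3) were named after their values were seen. Positions come from GENCODE v44 lifted to GRCh37, per-kilobase levels use its canonical transcripts, and promoter sequences come from a RefSeq table of GRCh38.p14. The labels number the replicates alike in each group of a line, and the deviations of same-numbered libraries from their group means correlated above 0.1 in every pair of IMR-32 (lowest 0.114), of SH-SY5Y (lowest 0.109) and of SK-N-BE(2)C control with 24 h (lowest 0.243), and not in every pair with SK-N-BE(2)C at 7 d (lowest 0.0482). No 2 replicates agreed within sampling noise (chi-square per degree of freedom of 1.69 or more in 90 pairs). CHRNB3, CACNG3, SLC1A6, SLC5A7, SOX10 and PRRX1 were not analysed here. Alternatives were DESeq2 1.42.0, other scalings, no filter, no fold limit, the replicate block, summed replicates and leaving libraries out.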

Additional observations from a re-analysis of the deposited data

Results flagged for a closer look

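A single library lay far from the other 4 of its group (Dixon's ratio above 0.71) in 11 of 210 groups of 5, where chance gives about 1 in 20, and 6 of the 11 were replicate 5 of IMR-32. In its control, replicate 5 was low for CHRNA3 at 334 CPM (others 526 to 597), GRIN1 at 27.0 CPM (others 68.5 to 82.5) and GLRB at 5.96 CPM (others 12.5 to 14.6). At 24 h it was low for CHRNA7 at 0.663 CPM (others 4.12 to 4.98), and at 5 d it was high for CHRM4 at 13.3 CPM (others 5.09 to 6.71) and GABRQ at 6.81 CPM (others 4.61 to 5.15). Its cell-cycle markers also summed to more than those of the other controls (2208 CPM, others 1370 to 1646), and their part in these values was not tested. The other libraries that stood apart were CHRNB2 in IMR-32 replicate 2 at 24 h (122 CPM) and in SH-SY5Y replicate 3 at 24 h (187 CPM) and replicate 2 at 5 d (249 CPM), GLRB in SH-SY5Y replicate 4 at 5 d (12.4 CPM) and CHRM1 in SH-SY5Y control replicate 5 (1.51 CPM).

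Responses that differed between 2 lines were called in the 45-library fit (edgeR), with the differences in log2 fold change given here as first line minus second. At 24 h SK-N-BE(2)C minus IMR-32 was -1.04 for CHRM2 and 2.83 for GRM8, and IMR-32 minus SH-SY5Y was -1.10 for CHRM1. At the longer time SK-N-BE(2)C minus IMR-32 was -2.83 for CHRM2, 5.06 for CHRND, 7.21 for GABRP and 5.41 for GRIN2C. SK-N-BE(2)C minus SH-SY5Y was -2.27 for CHRM2, -2.33 for CHRM4, 3.18 for GRIK4 and 5.18 for GRIN2C. IMR-32 minus SH-SY5Y was -7.17 for CHRNA1, -2.95 for CHRND, -7.29 for GABRP and 2.36 for GRM8. Those of CHRNA1, CHRND, GABRP, GRIK4, GRIN2C and GRM8 rest on a line with few or no counts, so their size depends on the prior count and is no bound. Several of these calls were lost when a replicate number was left out. At 24 h this held for CHRM2 and GRM8 (replicate 1, 2, 3 or 4) and CHRM1 (any). At the longer time it held for CHRM4 (replicate 3), and for CHRNA1 (replicate 1 or 3) and GRM8 (replicate 1, 2 or 4) between IMR-32 and SH-SY5Y.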

How the results depend on the processing

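Counts of called members moved by more than 1.5 times under these alternatives. Without the fold limit, SK-N-BE(2)C at 24 h gave 15 (8 higher, 7 lower) instead of 9. With the replicate block, IMR-32 at 24 h gave 14 (3 higher, 11 lower) instead of 9. For the 24 h responses, SK-N-BE(2)C against IMR-32 gave 1 without the filter instead of 3, SK-N-BE(2)C against SH-SY5Y gave 1 without the fold limit and 1 by DESeq2 instead of 0, and IMR-32 against SH-SY5Y gave 0 without the filter, 2 without the fold limit and 3 by DESeq2 instead of 1. The cause was not tested beyond what each alternative changes, and the shares of all genes called under the alternatives were not computed.

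Leaving out 1 library or replicate number gave 7 to 10 calls for SK-N-BE(2)C at 24 h, 16 to 20 at 7 d and 9 to 16 from 24 h to 7 d. It gave 8 to 12 for IMR-32 at 24 h, 17 to 26 at 5 d and 11 to 22 from 24 h to 5 d, the highest each time without replicate 5. It gave 14 to 17 for SH-SY5Y at 24 h, 16 to 20 at 5 d and 6 to 9 from 24 h to 5 d. For the 24 h responses it gave 0 to 4 (SK-N-BE(2)C against IMR-32), 0 to 1 (SK-N-BE(2)C against SH-SY5Y) and 0 to 2 (IMR-32 against SH-SY5Y). In the same order it gave 12 to 16, 7 to 18 and 8 to 18 for the longer responses and 45 to 48, 37 to 39 and 43 to 46 for the control levels.

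Of 260 calls of named genes, DESeq2 lost 2, RLE factors 2, library size alone 6 and no filter 15, and no alternative reversed a direction. Summing replicates 3 to 5 of SK-N-BE(2)C lost 10 of 40. The replicate block lost 1 of 116, CHRNA3 at 7 d in SK-N-BE(2)C, whose numbers do not pair by the check used (19 members called with the block, GABRG3 among them as higher, and 19 without). It gained members in 8 of 9 comparisons, among them 4 in IMR-32 at 5 d (24 instead of 20) and 6 from 24 h to 5 d (21 instead of 15), and 3 in SK-N-BE(2)C from 24 h to 7 d (15 instead of 12). The calls lost in most leave-one-out settings were GRIK3 in SK-N-BE(2)C at 24 h (14 of 20), GRIN2D in SH-SY5Y at 24 h (13) and GRM5 in IMR-32 from 24 h to 5 d (11). At these depths, members of under 1 CPM had few counts per library, and a change in them may not have been detectable.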
